A study of Homo sapiens with 12 samples.

Results

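The chromatin of HCT116 cells that carried either EHF or CDX1 was compared with that of cells carrying an empty vector, with both single-factor lines pooled as 1 group. HCT116 is an established human colorectal carcinoma line. The EV line is the empty vector control, and the sources used here do not say for these libraries which of the vectors it carried. The EHF line carried an EHF expression plasmid and had been selected with G418 as resistant clones. The CDX1 line had been transduced with a retrovirus that also carries GFP, and its GFP-positive cells had been sorted. The 9 libraries used were 3 of EHF and 3 of CDX1 against 3 of EV, of 12 in the series, the rest being of a line with both factors (EHF+CDX1). No control with an empty retrovirus is named among these groups, so for CDX1 the factor, the virus and the sort cannot be told apart, nor for EHF the factor and the choice of clones. Neither the labels nor the methods say that the 3 libraries of a line came from separate cultures, so the p-values measure the spread between these libraries, which may be technical.

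The members were regions of open chromatin on chromosomes 1 to 22, called by the authors over the series and counted in each library. All such regions were taken except the 8 over the EHF gene and the 3 over the CDX1 gene, which left 29449 of 30170. They were 151 to 762 bp long with a median of 151 bp, and 46.4% had an annotated gene start no more than 1 kb away. Of the 29449, 26313 reached 3 CPM (a count corrected for library depth) in at least 1 of the 9 libraries and were tested. The other 3136 were not. The library totals behind this filter included counts over the EHF and CDX1 genes. They were 567366 to 1033248 in EV and 1241063 to 2443334 in the single-factor libraries. The same 3 CPM therefore took fewer counts in EV, and weak regions could pass more easily through EV libraries. Regions with no count in EV passed only through single-factor libraries.

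EHF is an ETS-family transcription factor of epithelia, whose DNA-binding domain recognises a GGAA core. CDX1 is a caudal-type homeodomain factor of the intestinal epithelium that binds AT-rich sites. Both are known to act in the maturation of colonic epithelium. ATAC-seq reports where a transposase can cut chromatin, and active gene starts are its most regular targets. Reads from mitochondrial DNA, which has no nucleosomes, are a common by-product of the assay.

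A few sequences are shown first, as examples of the kinds of regions described further on. Regions with many copies of the pentamer GGAAT, the unit of classical human satellite DNA, are shown by 2 of the regions called lower when libraries were matched by replicate number. In the regions called lower, capitals mark GGAAT or its complement ATTCC, and all sequences are hg38, plus strand.
chr1:143247172-143247410: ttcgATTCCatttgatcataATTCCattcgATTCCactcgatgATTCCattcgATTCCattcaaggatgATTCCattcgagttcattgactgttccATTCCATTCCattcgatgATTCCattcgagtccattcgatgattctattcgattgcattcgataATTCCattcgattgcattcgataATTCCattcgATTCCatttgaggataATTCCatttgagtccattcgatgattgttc
chr16:46400037-46400208: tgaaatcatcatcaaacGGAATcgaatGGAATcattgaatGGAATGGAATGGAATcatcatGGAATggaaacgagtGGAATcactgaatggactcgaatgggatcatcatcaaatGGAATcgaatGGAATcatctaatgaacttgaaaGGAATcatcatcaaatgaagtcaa
The region below matches the mitochondrial genome and lies between genes on chromosome 5.
chr5:8622449-8622615: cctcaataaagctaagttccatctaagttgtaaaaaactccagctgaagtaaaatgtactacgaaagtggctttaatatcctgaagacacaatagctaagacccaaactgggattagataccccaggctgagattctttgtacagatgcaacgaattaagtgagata
Another kind of lower region had neither feature, here with the single ATTCC it holds in capitals.
chr14:18262586-18262752: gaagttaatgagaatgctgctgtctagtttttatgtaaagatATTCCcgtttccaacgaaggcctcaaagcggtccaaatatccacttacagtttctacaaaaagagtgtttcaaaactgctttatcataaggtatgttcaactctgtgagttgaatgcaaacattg
The regions below were called higher in the single-factor lines and lie between genes, the first with no count in any EV library. They are in lower case throughout, although the first holds 1 copy of the pentamer.
chr7:119176106-119176261: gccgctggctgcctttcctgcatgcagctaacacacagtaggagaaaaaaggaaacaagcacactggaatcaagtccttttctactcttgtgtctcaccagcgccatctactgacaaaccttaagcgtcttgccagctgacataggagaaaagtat
chr6:24359871-24360063: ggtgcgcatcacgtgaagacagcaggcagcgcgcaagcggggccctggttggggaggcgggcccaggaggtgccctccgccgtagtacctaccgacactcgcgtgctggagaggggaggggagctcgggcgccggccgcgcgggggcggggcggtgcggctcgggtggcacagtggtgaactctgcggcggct

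The labels were checked on the introduced genes. Counts over EHF exons were 741708, 543188 and 1536042 in the EHF libraries, against 30 to 48 in CDX1 and 33 to 100 in EV libraries. Counts over CDX1 exons were 544606, 524981 and 1916479 in the CDX1 libraries, against 32 to 104 in EHF and 18 to 96 in EV libraries. With these left out, the counts in member regions outside mitochondrial matches ranged from 144393 to 304215 for EV, from 228020 to 448939 for EHF and from 167213 to 391337 for CDX1, and the median region held 2 to 6, 5 to 11 and 3 to 9 counts. EV replicate 3 was the shallowest library and EHF replicate 2 the deepest. Of the epithelial markers checked, ESRP1, an epithelial splicing regulator, had its strongest region at 23.5 CPM in EV and 23 CPM in the single-factor lines, and EPCAM, KRT8, KRT18 and GRHL2 each had regions tested, whereas no region was tested near CDH1. In EV, the other ESRP1 regions lay at 4.67 to 6.56 CPM and those of EPCAM at 1.6 to 8.6 CPM. GRHL2 regions lay at 4.27 to 7.95 CPM and KRT8 regions at 0.691 to 4.38 CPM. The KRT18 region, at 1.81 CPM, was also counted for KRT8. Of 19 immune and endothelial markers, 3 (PTPRC, CD8A and CD68) had a region tested, with a median level of 2.24 CPM in EV and 3.14 CPM in the single-factor lines. Of 19 fibroblast genes, 9 had a region tested, with a median of 4.38 CPM in EV and 4.87 CPM in the single-factor lines. Both EV medians lay within the range of the epithelial regions.

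No region differed between the single-factor lines and EV in the pooled comparison. With edgeR's quasi-likelihood test, 0 of 26313 regions had a Benjamini-Hochberg adjusted p under 0.05 (0% called), and the smallest adjusted p was 0.309. An unadjusted p under 0.05 was given to 1342 regions, or 5.1%, of which 710 (2.7%) were higher and 632 (2.4%) lower in the single-factor lines. The median standard error of a log2 fold change was 0.55, and 0.38 for the 6800 regions with a mean of at least 10 counts. DESeq2 called 5 regions, all lower and all matching mitochondrial DNA. The deposited log2 CPM with limma-trend gave 12 lower regions, of which 11 matched mitochondrial DNA, and limma-voom after quantile normalisation gave 1. The 6 single-factor libraries lay all above the 3 EV libraries in 435 regions (1.65%) and all below in 296 (1.12%), so that the groups did not overlap in 731 (2.78%).

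Libraries with the same replicate number in different lines deviated together, mainly those of replicate 2, so the number was also entered as a block. That fit called 119 regions (0.452%), with 11 higher (0.0418%) and 108 lower (0.41%) in the single-factor lines. The common coefficient of variation was 0.326 without the block and 0.265 with it. An unadjusted p under 0.05 was given to 2180 regions (8.28%), 998 higher (3.79%) and 1182 lower (4.49%). The calls rested heavily on replicate 2: without EV replicate 2, 5 regions were called, and without replicate 2 of every line 1 was called. Without EV replicate 3, 23 were called, and without EV replicate 1, 278. The number of lower calls also moved with the scaling, from 0 after quantile normalisation and 1 after cyclic loess to 187 with RLE size factors and 812 with the library total alone. Under the library total the median of all regions was itself shifted by -0.59.

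Of the 11 regions called higher in the blocked fit, 6 lay within 1 kb of a gene start, against 50.3% of all regions tested. In 10 of the 11 the groups did not overlap, against 2.78% of all regions, a trait favoured by their being picked as called. The edgeR adjusted p of the 11 without the block ran from 0.309 to 0.92. At the start of DECR1 (chr8:90001255-90001508, exonic), which encodes a mitochondrial enzyme of fatty acid oxidation, the counts were 3, 12 and 2 in EV, 11, 42 and 12 in EHF, and 21, 38 and 15 in CDX1. The scaled level was 4.57 ± 2.71 CPM in EV (SD, n = 3) and 15 ± 4.04 CPM in the single-factor lines (SD, n = 6), a log2 fold change of 1.55 ± 0.38 (SE) with an adjusted p of 0.0197 in edgeR with the block and 0.92 without it. All 6 single-factor libraries lay above the 3 EV libraries. At the shared start of TMEM161B, a membrane protein gene, and its divergent transcript (chr5:88268800-88269041), the counts were 3, 6 and 6 in EV, 16, 45 and 16 in EHF, and 12, 28 and 14 in CDX1. Its log2 fold change was 1.58 ± 0.39 (SE) with an edgeR adjusted p of 0.0246 with the block, again with no overlap.

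WWTR1 encodes TAZ, a transcriptional coactivator of the Hippo pathway. Its start region (chr3:149658000-149658229) held 1, 4 and 4 counts in EV, 12, 25 and 10 in EHF, and 14, 25 and 9 in CDX1, and the log2 fold change was 1.87 ± 0.47 (SE). The start of PLK4 (chr4:127881265-127881468), the kinase that licenses centriole duplication, held 2, 6 and 5 counts in EV, 9, 27 and 17 in EHF, and 14, 39 and 11 in CDX1. There the log2 fold change was 1.63 ± 0.41 (SE), and for both genes the edgeR adjusted p with the block was 0.0296. The groups did not overlap at either start.

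The start of DHX9, an RNA helicase gene (chr1:182839663-182839813), held 1, 0 and 0 counts in EV, 5, 10 and 6 in EHF, and 7, 17 and 1 in CDX1. The single-factor level was 16.4 times that of EV, with a 95% counting interval of 2.79 to 660.0 that covers counting error only. At the start of MARS2 (chr2:197705779-197705929), the mitochondrial methionyl-tRNA synthetase, EV libraries held no count, EHF libraries 7, 5 and 2, and CDX1 libraries 4, 15 and 2. Against a floor of 3 counts over the EV libraries, MARS2 was 4.15-fold higher, without the counting error of the single-factor counts.

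The other 5 called higher lay away from gene starts. An exonic region of MIR181A1HG, the host transcript of a miR-181 cluster (chr1:198935562-198935818), held 9, 3 and 2 counts in EV, 10, 58 and 21 in EHF, and 8, 42 and 7 in CDX1, with a log2 fold change of 1.73 ± 0.40 (SE) in the blocked fit. It was the only one of the 11 whose groups overlapped, since EV replicate 1 lay within the single-factor range. The chromosome 6 region printed above, 1812 bp from a start of DCDC2, held 6, 5 and 4 counts in EV, 9, 49 and 14 in EHF, and 16, 31 and 13 in CDX1. The chromosome 7 region printed above held 0 counts in each EV library, 7, 17 and 5 in EHF, and 4, 17 and 2 in CDX1, and was 6.16-fold higher against the same floor. An intronic region of LINC02006 (chr3:153595327-153595477) held none in EV, 7, 16 and 2 in EHF, and 1, 6 and 2 in CDX1, 4.03-fold higher against that floor.

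The last, an intergenic region 7152 bp from FAM89A (chr1:231047406-231047556), had most of its counts in the EHF line. It held 12, 5 and 20 counts in EHF but 1 in each CDX1 library and none in EV. The difference between EHF and CDX1 there had an edgeR adjusted p of 0.178 without the block and 0.0927 with it. Of the 11, 1 held an ETS core and 1 a CDX core, by the letters given further on.

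**Figure D1:**
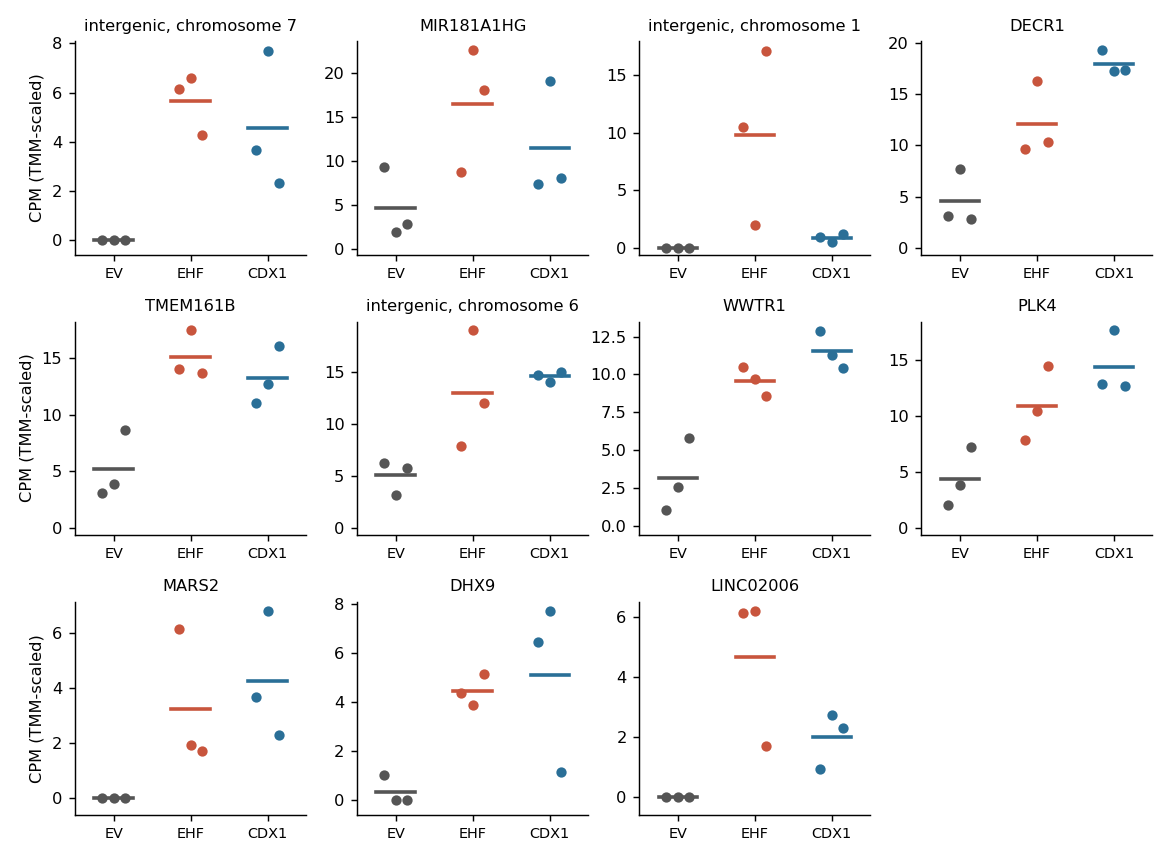
Level of the 11 regions called higher in the fit with the replicate number as a block, in CPM after TMM scaling, on a linear axis starting near 0. Each point is 1 library (from left to right replicate 1, 2 and 3) and each bar the mean of 3. All 6 single-factor libraries lay above the EV libraries in each panel but MIR181A1HG, and in the panel of chromosome 1 between genes the CDX1 libraries stayed close to 0.

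The rule for named regions also gave 4 higher regions that were not called in either fit. WASL encodes N-WASP, which promotes actin branching, and its start (chr7:123748966-123749270) held 7, 9 and 5 counts in EV, 15, 41 and 23 in EHF, and 13, 45 and 11 in CDX1. E2F7, a repressor of cell cycle genes, held 6, 8 and 6, then 9, 48 and 22, then 13, 43 and 12 in the same order at its start (chr12:77065520-77065787). The start of TMEM94 (chr17:75456398-75456639) held 3, 5 and 4, then 10, 39 and 19, then 9, 15 and 11. An intron of CFAP161 (chr15:81092268-81092516), a cilium-associated gene, held 4, 3 and 2, then 14, 19 and 17, then 12, 17 and 3. Their log2 fold changes were 1.27, 1.29, 1.54 and 1.69 in the blocked fit with edgeR adjusted p of 0.0594, 0.0624, 0.0673 and 0.0826.

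The 108 regions called lower in the blocked fit were of another kind, and nearly all were of higher count. A mean of at least 10 counts was reached by 107 of them, by 6 of the 11 called higher and by 6800 of all 26313. Of the 108, 25 matched mitochondrial DNA, 32 held 6 to 32 copies of GGAAT, and 51 had neither feature. Called lower were 14.0% of the 178 mitochondrial matches tested, 11.2% of the 285 GGAAT-repeat regions and 0.197% of the 25850 with neither. Over all 26313 regions the share was 0.41%. The median standard error with the block was 0.27 for mitochondrial matches and 0.28 for GGAAT repeats, against 0.52 over all regions. A change of a given size was thus easier to call in those classes. Of the 51, 46 were intergenic, 42 of them over 30 kb from any annotated start, and 5 were intronic. None of the 51 overlapped an exon. Log2 fold changes ran from -1.84 to -0.69 with a median of -0.92, and the groups did not overlap in 19. Set beside each other, with EV shared by the comparisons, the median log2 fold change of the 108 was -1.04 for EHF, -0.79 for CDX1 and -0.88 for EHF+CDX1. The 108 were picked as lower in these EHF and CDX1 libraries, so the sign of those medians was fixed by the choice. High EV values among them carry over to EHF+CDX1. Over whole classes with the block, the EHF+CDX1 median was -0.27 for GGAAT repeats and -1.27 for mitochondrial matches. The EHF+CDX1 line differed from EV in 458 of 26313 regions (1.74%) without the block and 1249 (4.75%) with it.

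The 285 GGAAT-repeat regions tested had a median log2 fold change of -0.63 with the block, against 0.04 over all regions tested, and 95.8% had a negative value. The threshold of 5 copies was set with the counts already known. The chromosome 1 region printed above held 44, 40 and 24 counts in EV, 26, 10 and 14 in EHF, and 27, 25 and 16 in CDX1. Its scaled level was 35.3 ± 9.98 CPM in EV (SD, n = 3) and 15.5 ± 7.91 CPM in the single-factor lines (SD, n = 6), with no overlap, a log2 fold change of -1.30 ± 0.24 (SE) and an edgeR adjusted p of 4.67e-04. The chromosome 16 region printed above held 118, 78 and 81 counts in EV, 77, 45 and 46 in EHF, and 74, 65 and 63 in CDX1, a log2 fold change of -1.01 ± 0.21 (SE). A neighbour on chromosome 16 (chr16:46400792-46401128) held 115, 108 and 98, then 73, 50 and 78, then 97, 62 and 55, a log2 fold change of -1.10 ± 0.21 (SE). In both chromosome 16 regions the scaled levels of the groups overlapped. Only uniquely mapped reads had been kept by the authors, so these counts are of the copies that could be placed.

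As a share of member counts outside mitochondrial matches, the GGAAT-repeat regions took 6.01%, 3.32% and 5.72% in EV replicates 1 to 3, 4.42%, 1.77% and 3.21% in EHF, and 5.11%, 2.11% and 4.43% in CDX1. Replicate 2 was lowest in every line, and within each replicate number both single-factor libraries lay below EV. The means were 5.02 ± 1.48% in EV and 3.51 ± 1.36% in the single-factor lines (SD, n = 3 and 6). The exact permutation test over libraries gave p = 0.179 (two-sided, 84 groupings, smallest possible p 0.0119), and permuting within replicate numbers gave p = 0.037, the smallest that 27 groupings allow. The GGAAT class was chosen after these data were seen, so the p-values of its share are not independent of that choice. With mitochondrial matches kept in the total the share was 1.6 ± 0.572% in EV and 1.31 ± 0.415% in the single-factor lines (exact permutation p = 0.429). Without EV replicate 2 the difference was -2.36 points in place of -1.51 (exact permutation p = 0.0714). In the EHF+CDX1 line the share was 6.3%, 3.0% and 3.51%, so its replicate 1 lay above every EV library.

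The 178 mitochondrial matches tested had a median log2 fold change of -0.60 with the block, and 25 of them (14.0%) were called lower. Without EV replicate 2 that median was -0.32 and 2 were called lower, and the median was -0.32 after quantile normalisation and -0.06 after cyclic loess. The example printed above, on chromosome 5, held 12, 20 and 80 counts in EV, 8, 25 and 15 in EHF, and 11, 9 and 12 in CDX1, so that EV replicate 3 carried much of its EV mean of 47.0 ± 59.6 CPM (SD, n = 3). A match in an intron of JAK2 (chr9:5093683-5093844) held 218, 501 and 153 counts in EV, 129, 265 and 196 in EHF, and 216, 218 and 36 in CDX1, with scaled levels that did not overlap and a log2 fold change of -1.12 ± 0.20 (SE). All mitochondrial matches together took 63.6%, 68.4% and 72.6% of member counts in EV, 61.1%, 53.2% and 65.8% in EHF, and 64.9%, 55.8% and 66.0% in CDX1. The groups overlapped, and the exact permutation test gave p = 0.107, or 0.0741 within replicate numbers.

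Among the 51 other lower regions, those in a gene were intronic, and 3 of them are given here. An intron of RARB, a retinoic acid receptor gene (chr3:25467423-25467576), held 252, 721 and 344 counts in EV, 193, 471 and 404 in EHF, and 258, 238 and 205 in CDX1, a log2 fold change of -0.97 ± 0.19 (SE), with scaled levels that overlapped. The RARB region had a mean of 343 counts, far above the median of 6.44 over all regions tested, and the reason was not tested. Introns of ERICH1 (chr8:631003-631215), with 22, 43 and 18, then 16, 35 and 13, then 7, 29 and 14 counts, and of SLC25A48, a mitochondrial carrier gene (chr5:135844188-135844351), with 11, 36 and 7, then 5, 17 and 6, then 4, 26 and 2, were both at an edgeR adjusted p of 0.0263 with the block, and their scaled levels overlapped for SLC25A48 but not for ERICH1. Over the 2101 tested intergenic regions more than 30 kb from a start and without the GGAAT repeat, the median log2 fold change was -0.18. Of these, 42 (2.0%) were called lower, against 0.41% of all regions.

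**Figure D2:**
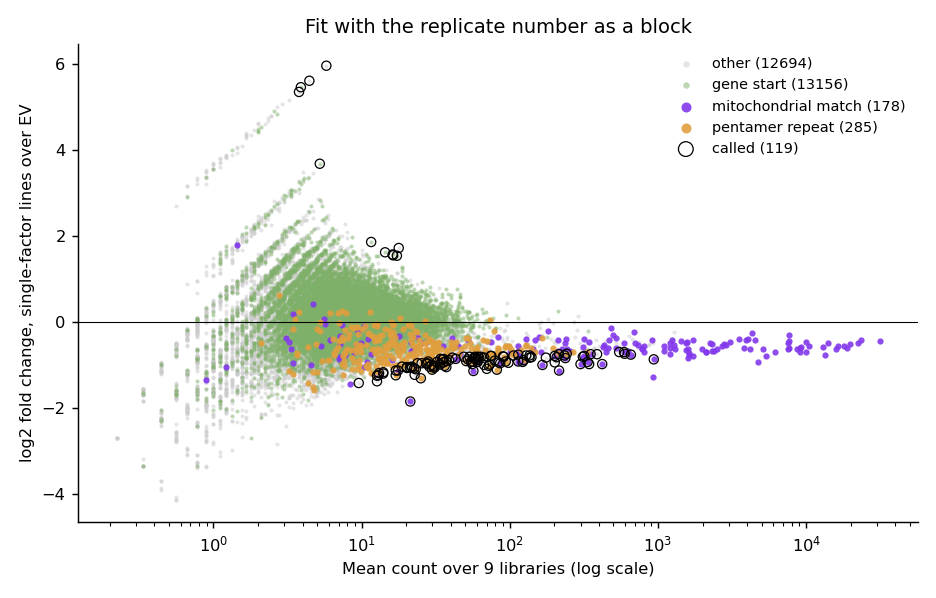
Log2 fold change of the single-factor lines over EV in the blocked fit, against the mean count per region over the 9 libraries on a log axis, with 1 point per region and circles round the 119 called. Purple mitochondrial matches and orange GGAAT (pentamer) repeats lie mostly below 0, and the circles above 0 are the 11 regions called higher.

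Regions at gene starts had a median of the opposite sign. Their median log2 fold change was 0.13 with the block over the 13157 tested outside mitochondrial matches, and an unadjusted p under 0.05 without the block was given to 428 higher and 122 lower regions, against 710 and 632 over all 26313. With the block 6 were called (0.0456%), all higher, a share close to the 0.0418% called higher over all regions. Exonic regions had a median of 0.13, intronic -0.01 and intergenic -0.05. In blocked fits the class median lay 0.09 above that of all regions with TMM and 0.05 to 0.10 above it under the other scalings and without 1 EV library. Without the block it lay 0.01 above when EV replicate 2 was left out. Its sign turned under the library total (-0.54) and the deposited log2 CPM (-0.70), where the median of all regions was -0.59 and -0.79. Gene-start regions were GC-rich, with a median GC content of 66.1% against 57.6% over all regions, and the median log2 fold change was -0.05 in the fifth of regions lowest in GC and 0.14 in the highest. The part of GC content in the class difference was not tested.

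The share of member counts within 1 kb of a gene start was 51.8%, 52.8% and 52.7% in EV, 53.5%, 55.6% and 54.7% in EHF, and 53.5%, 55.7% and 54.8% in CDX1. The groups did not overlap, the difference of means was 2.21 percentage points, and the exact permutation test gave p = 0.0119 (two-sided), the smallest that 84 groupings allow. Between 54.6% and 75.9% of these counts fell in mitochondrial matches that lie near an annotated start. With mitochondrial matches left out, the share was 45.3%, 47.4% and 46.2% in EV, 50.6%, 53.9% and 55.1% in EHF, and 48.8%, 53.8% and 50.5% in CDX1. That is 46.3 ± 1.04% in EV and 52.1 ± 2.49% in the single-factor lines (SD, n = 3 and 6), a difference of 5.84 points with no overlap and an exact permutation p of 0.0238, or 0.037 within replicate numbers. Either line alone against EV cannot give a two-sided p below 0.1. In the EHF+CDX1 line the share without mitochondrial matches was 50.6%, 49.0% and 55.2%. Without EV replicate 1, the difference in the share with mitochondrial matches was 1.89 points and the exact permutation p 0.0714.

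**Figure D3:**
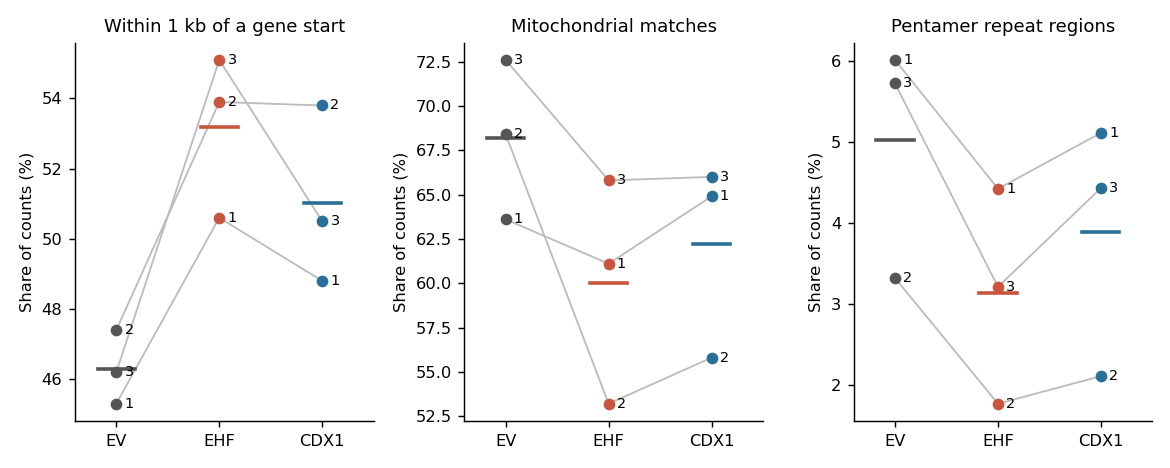
Share of member counts per library in 3 classes of regions, with each library as a point marked by its replicate number, same-numbered libraries joined and bars at the mean of each line (axes do not start at 0). Gene starts (mitochondrial matches left out) lie higher in all 6 single-factor libraries than in EV, and pentamer repeats lie lower in both lines than in the same-numbered EV library.

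**Figure D4:**
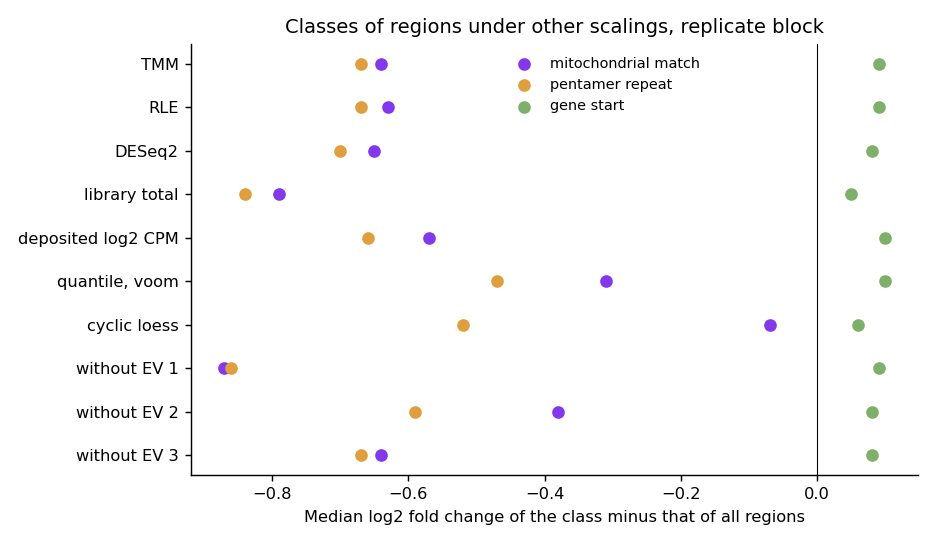
Median log2 fold change of 3 classes minus the median of all regions, in blocked fits with other scalings or without 1 EV library. Mitochondrial matches and pentamer repeats stay below all regions in each fit, though after cyclic loess mitochondrial matches lie only 0.07 below, and gene starts lie 0.05 to 0.10 above.

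The shares of the chromosomes were compared in the same way. Of 22 chromosomes, 0 had an adjusted p under 0.05 for their share of member counts outside mitochondrial matches, 2 had an unadjusted exact permutation p under 0.05, and the smallest adjusted p was 0.262. Chromosome 3 held 9.7 ± 0.398% in EV and 8.81 ± 0.361% in the single-factor lines (SD, n = 3 and 6), and chromosome 4 held 6.42 ± 0.264% and 6.19 ± 0.0593%. With GGAAT repeats also left out, the unadjusted exact permutation p was 0.0238 for chromosome 3 and 0.393 for chromosome 4, at 6.0% in EV and 5.89% in the single-factor lines. Within replicate numbers 12 chromosomes reached the smallest possible p of 0.037, 6 with a higher and 6 with a lower share, which gives an adjusted p of 0.0679.

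Lists of genes were examined by the regions within 5 kb of their starts. The 13 lists covered 295 genes, of which 185 had a region tested, 335 regions in all. None was called in either fit. An unadjusted p under 0.05 was given to 13 of the 335, or 3.88%, against 5.1% of all regions, with 12 higher and 1 lower. The median log2 fold change of the 335 was 0.22, against 0.04 over all regions and 0.12 over gene starts outside mitochondrial matches.

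The marker genes that the study itself followed had 14 regions near 8 of 12 genes and none with an unadjusted p under 0.05. As the study's own choice, this list is not independent evidence of a direction. The CDX2 start (chr13:27969256-27969406), an intestinal homeodomain factor gene, held 5, 6 and 2 counts in EV, 8, 12 and 8 in EHF, and 16, 7 and 5 in CDX1, a log2 fold change of 0.70 ± 0.53 (SE). The first of the 2 VIL1 regions, at the locus of the microvillus protein villin, held 2, 0 and 0, then 0, 0 and 0, then 3, 0 and 1 counts, and the second 2, 0 and 1, then 0, 1 and 4, then 2, 0 and 1. With log2 fold changes of -0.36 ± 1.40 and -0.04 ± 1.14 (SE), no difference at VIL1 was detectable at this depth. Brush border genes had 26 regions near 13 of 28 genes, 2 higher and 1 lower by unadjusted p. The smallest p was at a region near CDHR2, a microvillus protocadherin, that lies in an exon at the start of RNF44 (chr5:176537342-176537545). It held 5, 11 and 2 counts in EV, 10, 24 and 19 in EHF, and 12, 21 and 16 in CDX1, a log2 fold change of 1.10 ± 0.42 (SE) with an edgeR adjusted p of 0.92. KRT19, an epithelial keratin, had regions at log2 fold changes of 1.71 ± 0.76 and -0.06 ± 0.61 (SE). EPS8, an actin-capping protein of microvilli, had 4 regions, 1 of them positive, from -1.42 ± 0.64 (SE) to 0.29.

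Epithelial junction genes had 57 regions near 23 of 28 genes, with 4 higher by unadjusted p and a median of 0.05, close to that of all regions. The CLDN1 start (chr3:190322428-190322578), a tight junction claudin, held 0, 4 and 1 counts in EV, 7, 15 and 7 in EHF, and 8, 13 and 4 in CDX1, a log2 fold change of 1.92 ± 0.65 (SE) with an edgeR adjusted p of 0.92, or 0.192 with the block. OCLN, another tight junction protein, held 1, 6 and 2, then 12, 22 and 11, then 6, 15 and 7, with a log2 fold change of 1.53 ± 0.53 (SE). JUP, plakoglobin of desmosomes and adherens junctions, held 0, 0 and 1, then 5, 4 and 6, then 6, 5 and 3, and ESRP1 5, 7 and 3, then 9, 20 and 14, then 11, 24 and 6. These are the 4 smallest p of a list of 57 regions and none passed the adjustment. The other JUP region was at a log2 fold change of -0.31, and the 4 ESRP1 regions ran from -0.35 to 0.98.

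The lists of transcription factors held few regions with a small p. Of 22 regions near intestinal endoderm factors, 1 had an unadjusted p under 0.05, at the start of KLF5, a factor of proliferating crypt cells (chr13:73058758-73059029), with 15, 17 and 6 counts in EV, 22, 61 and 21 in EHF, and 17, 42 and 14 in CDX1 and a log2 fold change of 0.67 ± 0.33 (SE). Of 30 regions near ETS family genes none did, the smallest p being at an intronic region of ELF2 with a log2 fold change of 0.58 ± 0.42 (SE). Of 20 AP-1 regions 1 did, at the start of JUNB (4, 1 and 0 counts in EV, 10, 8 and 11 in EHF, and 5, 6 and 9 in CDX1, log2 fold change 1.85 ± 0.70 SE), and of 27 Wnt and stem cell regions 1 did, beside the start of MYC (6, 6 and 0, then 10, 22 and 8, then 10, 15 and 14, log2 fold change 1.28 ± 0.51 SE). JUNB also had 2 further regions, at log2 fold changes of -0.65 and -0.05.

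The remaining lists held no call. The 33 regions near stress and unfolded protein genes had a median log2 fold change of 0.31 and 27 were positive, but none had an unadjusted p under 0.05. The HSPA8 start (chr11:123062111-123062394), a constitutive chaperone gene, held 8, 16 and 8 counts in EV, 19, 33 and 26 in EHF, and 17, 35 and 9 in CDX1. The 29 regions near interferon and foreign-DNA response genes had a median of 0.14 with none at an unadjusted p under 0.05 (smallest p beside the start of IRF2, 1.27 ± 0.64 SE), the 36 near p53 target genes a median of 0.24 with 1 (CCNG1, 0.85 ± 0.42 SE), and the 42 near cell cycle genes a median of 0.22 with 1 (CCNB1, 0.91 ± 0.44 SE). The 13 regions near fibroblast genes had a median of 0.38 with none (smallest p in an exon of COL1A1, 1.04 ± 0.65 SE), and of the 3 near immune and endothelial genes PTPRC was at 1.25 ± 0.57 (SE).

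**Figure D5:**
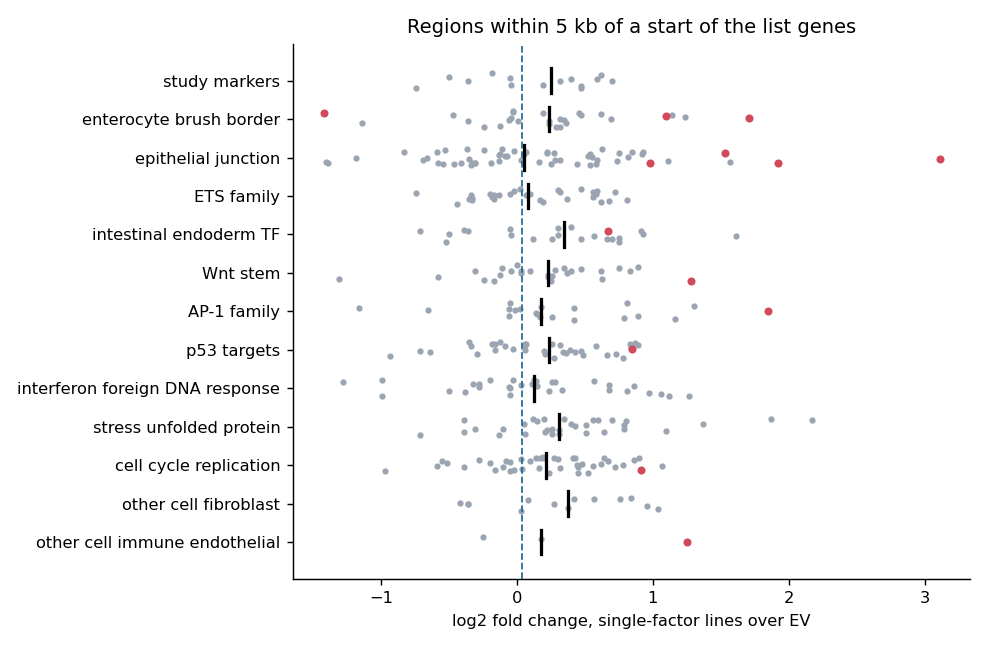
Log2 fold change (single-factor lines over EV, fit without the block) of each region near the genes of 13 lists, 1 point per region. Red points have an unadjusted p under 0.05, black bars are list medians and the dashed line is the median of all regions, 0.04. The 13 red points are scattered over the lists, and none passed the adjustment.

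The letters bound by the introduced factors were counted as a description. A CDX core (TTTATG or TTTATT, either strand) stood in 13.3% of all regions tested, in 14.5% of the 200 higher regions of smallest p and in 22% of the 200 lower ones. An ETS core (AGGAAGT or CGGAAGT, either strand) stood in 10.6% of all, 9.0% of the 200 higher and 6.5% of the 200 lower regions. In the blocked ranking these shares were 13.5% and 24.5% for the CDX core and 9.5% and 1.5% for the ETS core. The 200 lower regions of the blocked ranking had a median GC content of 38.4% against 57.6% over all regions, and 32 of them were mitochondrial matches and 61 GGAAT repeats, of which 41.0% and 12.3% of all those tested held a CDX core.

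The lines were compared with each other in the same data, since a pooled group can hide opposite changes. Without the block, edgeR called 0 of 26313 regions between EHF and CDX1 (0% called), with 464 higher and 373 lower in EHF at an unadjusted p under 0.05. With the block it called 4 (0.0152%), 3 higher (0.0114%) and 1 lower (0.0038%) in EHF, and none of these was called in the pooled comparison. None of the 119 pooled calls differed between the lines by this test. The pooled fit counts spread between the lines as error, so regions that differ between them were less likely to be among the 119. This result is therefore not a test that the lines agree. In the fit without the block, 22 regions were called between the lines when EHF replicate 2 was left out and 3 when CDX1 replicate 2 was. Against EV with the block, the model with 1 coefficient per line called 139 regions for EHF (0.528%), 17 higher (0.0646%) and 122 lower (0.464%), and 9 for CDX1 (0.0342%), 3 higher (0.0114%) and 6 lower (0.0228%). Without the block it called 1 for EHF (0.0038%), which was higher, and 0 for CDX1 (0%). These counts share the EV libraries, and the difference between them was not itself tested beyond the test per region given here.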

How the data were processed

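ATAC-seq of HCT116 lines was analysed from the count table that the authors deposited. The authors aligned reads to GRCh38/hg38 with Subread 2.0.0, retaining reads with a unique position, and used HOMER 4.7 for peaks and featureCounts 2.0.0 for counting, as their processing notes and methods give it. The deposited counts are whole reads per region, not normalised, and the deposited log2 values are log2 CPM per library, used only as an alternative. Read shifting and duplicate removal are not given in the sources used here.

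The whole table was fitted in R 4.3.3 with edgeR 4.0.16 (quasi-likelihood, robust, TMM, regions that reached 3 CPM in any of the 9 libraries, 26892 in all). Tests were two-sided, p-values were adjusted by Benjamini-Hochberg across every fitted region, and the threshold was 0.05. Only regions on chromosomes 1 to 22 outside the EHF and CDX1 genes are reported. Regions were annotated with GENCODE 44 on hg38. Mitochondrial matches were found with blastn 2.17.0 (at least 40 bp at 80% identity or more), and GGAAT repeats as at least 5 copies on either strand. The members and lists were chosen with earlier results of these data known.

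Shares were tested by exact permutation over libraries. Deviations of same-numbered libraries from their line means correlated at 0.107 to 0.526 in every pair of lines. Those of differently numbered ones correlated at -0.352 to 0.14. In 18 of 18 matches of a library with the libraries of another line, its own number was the best. For number 2 the correlations were 0.371 to 0.526. For numbers 1 and 3 they were 0.107 to 0.247, against 0.071 to 0.14 for number 1 with number 3. The pairing therefore mainly set replicate 2 apart. The labels do not say what the number marks. Libraries of a line differed beyond counting noise (chi-square per degree of freedom 1.293 to 2.956), so none was counted as a repeat. Named regions were those called with a mean of at least 10 counts and no overlap between groups, at most 10 in each direction by log2 fold change. Remaining places went to the regions of smallest p with that mean count. Each gene list gave its region of smallest p. The regions called with the block, and the list members named besides, were named after their values were seen. A fold against a group with no count uses a floor of 3 counts over the group. Intervals cover counting error only, and the floor covers that of the group with no count alone. Alternatives were other scalings, filters, tools (DESeq2 1.42.0, limma 3.58.1), region sets and left-out libraries. The alternatives run within the blocked fit, the GGAAT class with its shares, and the fits without GGAAT repeats were chosen after seeing the data. The code was tested on simulated data. Results for some items called in the blocked fits are not reported here.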

Additional observations from a re-analysis of the deposited data

Results flagged for a closer look

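In a group of 6 libraries, 1 library stood apart in 2 of 58 sets of values examined, where chance alone flags about 1 in 20. At the CDX2 start, CDX1 replicate 1 was at 14.7 CPM, and the other 5 single-factor libraries at 3.17 to 7.01 CPM. Beside the MYC start, CDX1 replicate 3 was at 16.1 CPM and the other 5 at 6.8 to 9.19 CPM.

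With the replicate number as a block, 4 regions differed between the EHF and CDX1 lines, by the test of the difference itself, of which 3 are given here. A region between genes on chromosome 7 (chr7:158717315-158717465) held 19, 1 and 13 counts in EHF and none in CDX1, a log2 difference of 6.20 ± 1.27 (SE). One between genes on chromosome 6 (chr6:110000418-110000606) held 15, 2 and 18 counts in EHF and 0, 0 and 1 in CDX1, a log2 difference of 4.39 ± 0.97 (SE). In an intron of CPQ (chr8:97120406-97120556) EHF held 2, 0 and 1 and CDX1 19, 4 and 9 counts, a log2 difference of -3.45 ± 0.81 (SE). In the chromosome 7 and 6 regions EHF replicate 2, the deepest EHF library outside mitochondrial matches, held 1 and 2 counts, and without the block the edgeR adjusted p of the 3 was 0.0928 to 0.178.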

How the results depend on the processing

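The pooled comparison called 0 regions, also with RLE size factors, cyclic loess, either filter, without any 1 library or replicate number (0 to 0), and with CDX1 alone. It called 2 with the library total, 5 with DESeq2, 1 with quantile normalisation and voom, 12 on the deposited log2 CPM, 2 without the robust option, 1 with a coefficient per line, 1 with EHF alone and 119 with the replicate number as a block. The paired fit itself called 198 with RLE, 815 with the library total, 5 with cyclic loess, 205 with a mean of at least 10 counts, 307 with DESeq2, 0 with quantile normalisation and voom, 1440 on the deposited log2 CPM, 52 with all 12 libraries, 67 with EHF alone, 4 with CDX1 alone, 0 without the block and 1 to 284 with libraries left out. All 119 kept their direction in each of these fits in which they were tested, and 3 of them were still called with cyclic loess, 91 with DESeq2, 0 with quantile normalisation and voom, 5 without EV replicate 2 and 1 without replicate 2. Between EHF and CDX1, 0 became 4 with the block and 0 to 22 with libraries left out.

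The share at gene starts (2.21 points) was -11.6 points when EHF and CDX1 exon counts stayed in the total (p = 0.107), 2.16 (p = 0.1) for EHF alone, 2.26 (p = 0.1) for CDX1 alone and 1.89 to 2.45 with libraries left out, by exact permutation. On all regions the differences were -40.4 points for the mitochondrial share and -1.01 for the GGAAT share (exact permutation p = 0.0119), and 14 chromosomes passed. That total includes the EHF and CDX1 exon counts, which are large only in the lines given those genes. They lower the share of other classes in the single-factor libraries, so these p-values do not test the classes. In the main share, with the block, the GGAAT difference was -1.51 points (exact permutation p = 0.037), for a class chosen after seeing the data. Gene lists in the paired fit had 3 calls on the deposited log2 CPM. On the deposited log2 CPM, which is not centred, 6 list regions turned sign: CDX2 (-0.20), ELF2 (-0.07), KLF5 (-0.13), HSPA8 (-0.22), CCNB1 (-0.06) and COL1A1 (-0.01). The region with the most counts, a mitochondrial match on chromosome 13, was at 0.24 with cyclic loess and the block, against -0.43. The cause of the changes under these scalings was not tested. The median region held 2 to 11 counts, which limits single regions more than the classes.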
